A study of Homo sapiens with 6 samples.

Results

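Splicing factor genes of the SR, hnRNP and snRNP families were analysed in BT-549/tet-WDR5shRNA cells. They were taken by symbol, as all genes of the RNA-seq table that begin with SRSF, HNRNP, SF3A, SF3B, SNRP or U2AF. Of 62 such rows among 19792 genes, 5 pseudogenes were left out, and the other 57 genes are described here. The BT-549 line was derived from a human triple-negative breast tumour and is mesenchymal in form. All 6 cultures carried a WDR5 shRNA in a tetracycline-inducible vector with puromycin resistance. The vehicle group was 3 cultures with 0.1% DMSO, and the DOX group was 3 cultures with 500 ng/ml doxycycline, which switches the shRNA on. The treatment lasted a week by the study's text, while the sample records give no duration. A single shRNA was used, and no culture without it was analysed here, so DOX itself and silencing of WDR5 cannot be told apart.

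The table gives, for each gene and for no library alone, the mean normalized count over all 6 libraries, and the log2 fold change of DOX over vehicle with its standard error. Levels below are given as percent of vehicle with a 95% interval, computed from those values, and a gene was called lower or higher where the adjusted p of DESeq2's Wald test was under 0.05. The level within each group was computed from the mean and the fold change, since both groups have 3 libraries. The targeted gene, WDR5, was left at 13.6% of vehicle (95% interval 12.2% to 15.2%). Of the marker genes of this cell line, VIM had a mean normalized count of 47782, CAV1 of 28550, SPARC of 19657, ZEB1 of 7333, AXL of 5147 and CDH2 of 4093. ESR1, PGR and EPCAM had means of 0.790, 0.801 and 1.30, and CDH1 had 59.6. The leukocyte gene PTPRC had a mean of 44.7 and was at 177% of vehicle with DOX (adjusted p = 0.0082). CD3E had no row, and the endothelial gene PECAM1 and the hepatocyte gene ALB had means of 2.86 and 4.0. With DOX, 5 of the 6 markers of the line were higher, with CDH2 at 181% of vehicle and SPARC, VIM, AXL and CAV1 at 120%, 119%, 115% and 114%, whereas ZEB1 was lower at 73.3% (largest adjusted p of the 6 = 0.00019). CDH1 was lower as well, at 62.5% (adjusted p = 0.014). The part of these shifts in the values below was not tested. Library depth is unknown.

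Introns are removed from pre-mRNA by the spliceosome, which is assembled from small nuclear ribonucleoproteins (snRNPs). Each of the U1, U2, U4 and U5 snRNPs has an RNA wrapped by a ring of Sm proteins, and U1 and U2 recognise the 5′ splice site and the branch site. SR proteins bind exons and favour their inclusion, and hnRNP proteins coat pre-mRNA and often favour exon skipping. Many SR and hnRNP genes are known to regulate their own mRNA by alternative splicing coupled to decay.

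Both directions of change were found among the splicing factor genes, and increases were more frequent. An adjusted p-value was available for 55 of the 57 genes. Of these, 26 were higher with DOX (47.3%), 11 were lower (20.0%) and 18 did not pass the threshold. Among all 15954 genes tested, 24.3% were higher and 22.5% were lower. Splicing factor genes are highly expressed, with a median mean normalized count of 3636, and more genes were called at such levels. Of 5513 genes whose mean normalized count was 1000 or more, 39.3% were higher and 27.9% were lower. Of the 49 splicing factor genes at that level, 24 were higher (49.0%) and 8 were lower (16.3%). The changes were small. The median log2 fold change was 0.08 over the 55 genes and -0.01 over all genes tested, with median sizes of 0.25 and 0.31. At a mean of 1000 or more, it was 0.09 over the 49 genes and 0.06 over the 5513 genes, with a median size of 0.23 in both. The size of the log2 fold change was 0.5 or more for 10 of the 55 genes (18.2%), beside 30.6% of all genes tested. At the higher level it was so for 8 of the 49 genes (16.3%), close to the 16.1% of the 5513 genes. SRSF12 was the only splicing factor gene beyond 1 in size. When the null hypothesis was a change within 0.25 of 0 on the log2 scale, 15 of the 49 genes passed (30.6%), beside 23.6% of the 5513 genes. The cultures were measured in bulk, so fewer expressing cells and less RNA per cell cannot be told apart.

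**Figure D1:**
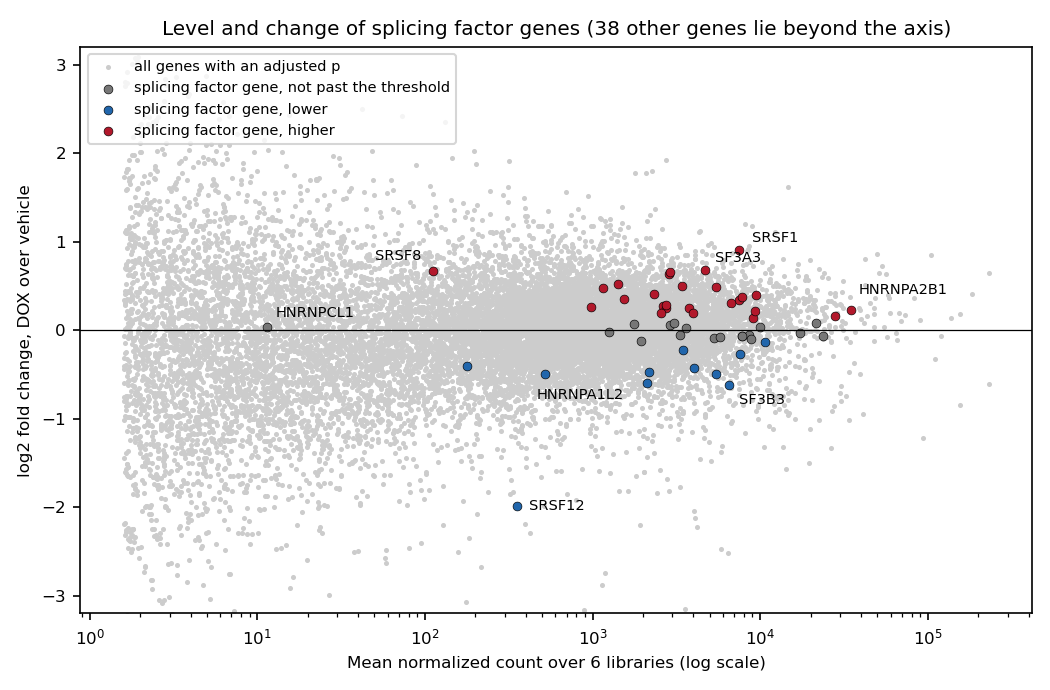
Mean normalized count over 6 libraries (x axis, log scale) against the log2 fold change of DOX over vehicle (y axis), with all genes tested in grey and splicing factor genes in colour (26 higher, 11 lower, 18 not past the threshold). Most splicing factor genes lie to the right, within 0.7 of 0 on the log2 scale, with SRSF1 above and SRSF12 far below the others, and 38 genes of other kinds lie beyond the y axis.

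The SR protein genes included the largest increase and the largest decrease of the set. Of 12 SRSF genes, 5 were higher with DOX (41.7%), 2 were lower (16.7%) and 5 did not pass. The shares were 39.3% and 27.9% among all genes with a mean of 1000 or more, a level that SRSF8 and SRSF12 do not reach. SRSF1, the founding SR protein with known oncogenic activity, rose from a level of 5245 to 9806 normalized counts, that is to 187% of vehicle (95% interval 174% to 200.4%). Its log2 fold change was 0.90 (standard error 0.05, adjusted p = 7.2e-68). SRSF1 lies at chr17:58000919-58007346 on the minus strand of GRCh38. SRSF2, which activates exons with purine-rich and other enhancers, rose to 141% (131% to 153%). SRSF8, a weakly expressed retrogene of SRSF2, has a mean normalized count of 112 and was at 160% of vehicle with a wide interval from 124% to 205% (adjusted p = 0.00078). SRSF9 and SRSF6 rose to 120% (111% to 131%) and 119% (111% to 128%).

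SRSF12 encodes an SR protein that is known to counteract other SR proteins in vitro. Its level fell from 563 to 142 normalized counts with DOX, or to 25.3% of vehicle (21.6% to 29.6%, adjusted p = 2.0e-63). The gene lies at chr6:89095959-89118071 on the minus strand. SRSF7, which acts in splicing and mRNA export, fell to 85.4% (79.5% to 91.8%). The intervals of SRSF3, SRSF11 and SRSF5 included 100%, from 90.5% to 103% for SRSF3, 89.1% to 101% for SRSF11 and 98.8% to 114% for SRSF5. SRSF4 and SRSF10 also did not pass, at 96.3% and 93.9% of vehicle. Differences between paralogs such as SRSF3 and SRSF7, or SRSF1 and SRSF9, were not tested.

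**Figure D2:**
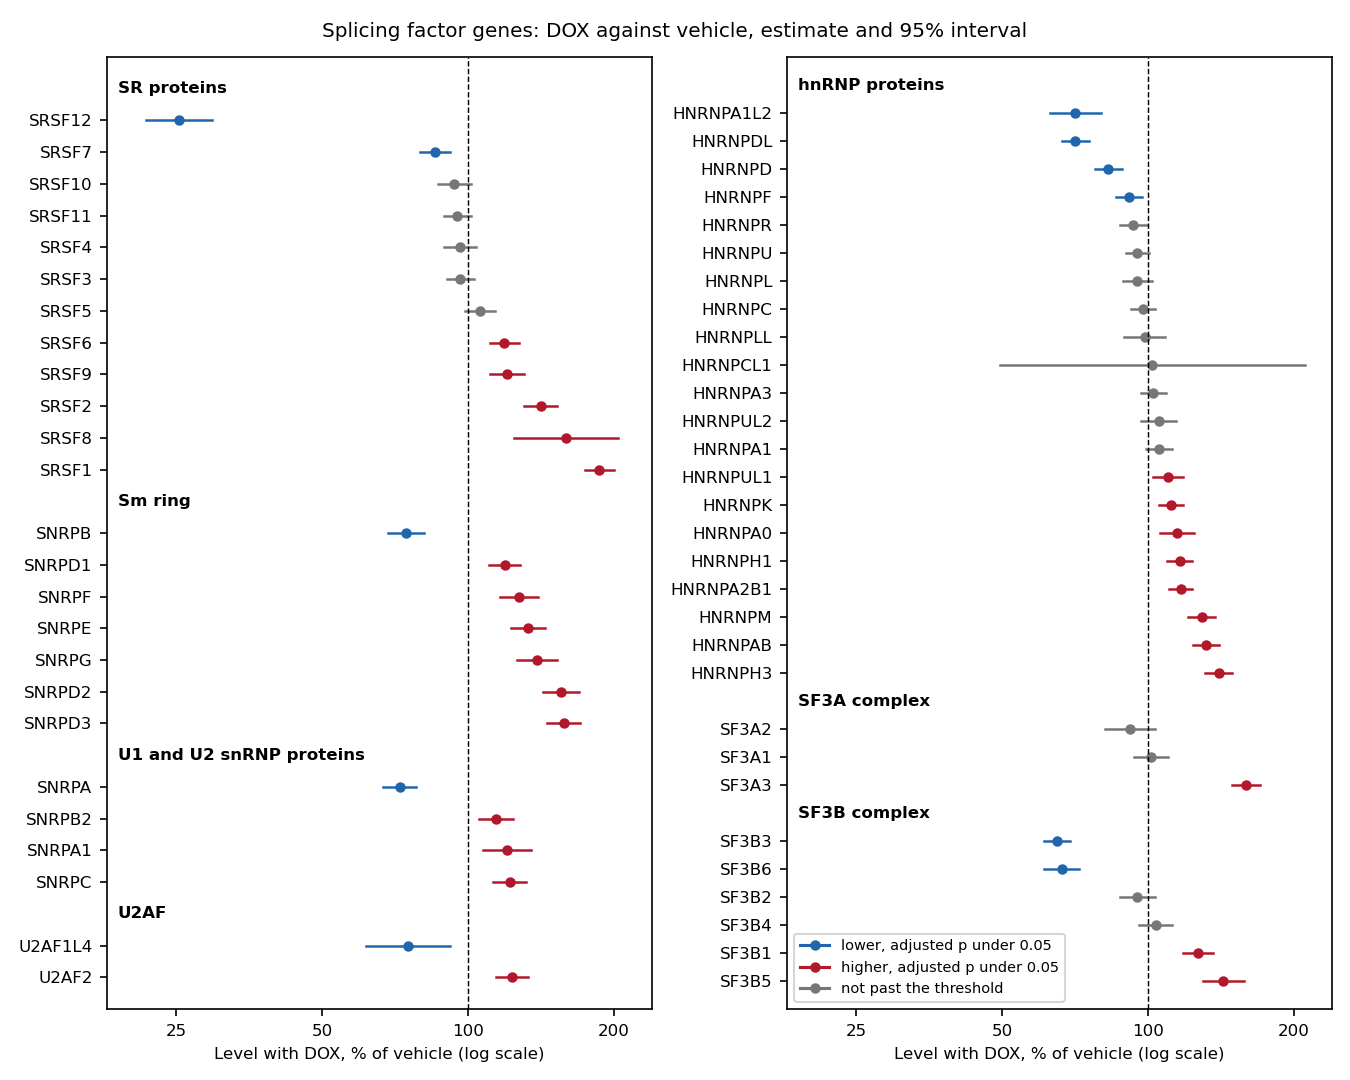
Level with DOX as percent of vehicle (x axis, log scale) for the 55 splicing factor genes with an adjusted p, grouped by role, with points for estimates and lines for 95% intervals. SRSF12 stands at 25.3% and SRSF1 at 187%, and 6 of the 7 Sm ring genes lie above 100%, with SNRPB at 74.6%.

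Among the hnRNP genes, no tested gene reached 0.5 in size on the log2 scale. Of 23 HNRNP genes, 21 had an adjusted p. In this family 8 were higher with DOX (38.1%), 4 were lower (19.0%) and 9 did not pass. Among all genes with a mean of 1000 or more, 39.3% were higher and 27.9% were lower, so the increases were near that share. HNRNPA1L2 and HNRNPCL1, with means of 521 and 11.5, are counted in the family but do not reach that level. For the hnRNP genes, the median size of the log2 fold change was 0.14, and the extremes were -0.50 and 0.49. HNRNPH3, a member of the G-tract binding hnRNP H family, rose from 4534 to 6347 normalized counts, which is 140% of vehicle (131% to 149%, adjusted p = 1.1e-22). HNRNPAB, a protein that can bind CArG boxes, rose to 132% (124% to 140.0%), and HNRNPM to 129% (121% to 138%). HNRNPA2B1, which packages pre-mRNA together with HNRNPA1, rose to 117% (111% to 123%). HNRNPH1 and HNRNPA0 rose to 116% (110% to 123%) and 115% (106% to 124%). HNRNPK, a poly(C)-binding protein, rose to 111% (105% to 118%). These last 4 estimates lie under 0.25 on the log2 scale.

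HNRNPD (AUF1), which binds AU-rich elements in mRNA, and its close relative HNRNPDL lie near each other on chromosome 4, and both fell with DOX. HNRNPDL fell from 6350 to 4499 normalized counts, or to 70.9% of vehicle (66.5% to 75.6%, adjusted p = 1.8e-24), and HNRNPD to 82.9% (77.7% to 88.4%). HNRNPDL spans chr4:82422565-82430462 and HNRNPD chr4:82352498-82374503, both on the minus strand. HNRNPF, a partner of HNRNPH1 at G-tracts, fell to 91.4% (85.9% to 97.3%, adjusted p = 0.012). The abundant HNRNPU, HNRNPC and HNRNPA1 did not pass, with narrow intervals of 89.95% to 101% for HNRNPU, 92.1% to 104% for HNRNPC and 99.3% to 112% for HNRNPA1. HNRNPU is a scaffold of nuclear matrix and chromatin, HNRNPC binds uridine tracts, and HNRNPA1 represses exons. Of the other hnRNP genes, HNRNPUL1 rose to 110% (102% to 118%, adjusted p = 0.022), and HNRNPR, HNRNPL, HNRNPLL, HNRNPA3 and HNRNPUL2 did not pass, with estimates from 93.2% for HNRNPR to 105% for HNRNPUL2.

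Some of these genes share sequence with other genes, so their reads could be assigned in more than a single way. All stretches of 75 bases in the annotated HNRNPA1L2 transcript also occur in some other gene, and HNRNPA1 is among the genes that share stretches with it. The exons of HNRNPA1L2 overlap an unnamed gene (ENSG00000273784) on the same strand over 100% of their length. The share held by HNRNPA1 alone was not computed. HNRNPA1L2 is listed at 70.8% of vehicle (62.8% to 79.9%), while HNRNPA1 is listed at 105% and the left-out pseudogene HNRNPA1P10 at 92.9%. HNRNPCL1 has a mean normalized count of 11.5, and its interval ran from 49.5% to 211%. HNRNPH2 and HNRNPCL2 had means of 1.06 and 0.526 and no adjusted p. The exons of HNRNPH2 overlap the readthrough gene RPL36A-HNRNPH2 on the same strand over 15.8% of their length. HNRNPUL2 overlaps the readthrough HNRNPUL2-BSCL2 over 44.3%, and SRSF1 an unnamed gene (ENSG00000266086) over 32.7%. SRSF6 overlaps an unnamed gene (ENSG00000288000) on the same strand over 13.4%. Other genes share 32.2% of the 75-base stretches of HNRNPL, 29.8% of those of HNRNPA1 and 15.5% of those of SRSF6. SRSF2, SRSF9 and HNRNPA3 overlap antisense exons over 27.7%, 43.6% and 53.6% of their length. The library kit keeps the strand, but the strand setting of the counting is not given in the sources used here. Over 10% of 75-base stretches were shared for 14 of the 57 genes, and without them 21 of 43 genes were higher and 9 lower. Among all genes with a mean of 1000 or more, 39.3% were higher and 27.9% lower. Among all genes tested, the shares were 24.3% and 22.5%. These overlaps and stretches come from GENCODE 44, which may differ from the annotation that the authors counted on. The part of shared reads in these values was not tested. U2AF1, the small subunit of U2AF, and SNRPN had no row, so they were not analysed here.

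The genes of the Sm ring were all past the threshold, and they did not all move the same way. Of the 5513 genes with a mean of 1000 or more, 39.3% were higher and 27.9% were lower. SNRPD1, SNRPD2, SNRPD3, SNRPE, SNRPF and SNRPG were higher with DOX, and SNRPB was lower. SNRPD3 rose from 2235 to 3528 normalized counts, or to 158% of vehicle (146% to 171%, adjusted p = 2.0e-28). SNRPD2 rose from 2243 to 3488, or to 155% (143% to 169%). SNRPG and SNRPE rose to 139% (126% to 153%) and 133% (123% to 145%). SNRPF and SNRPD1 rose to 128% (117% to 140.0%) and 119% (111% to 128%). In contrast, SNRPB, which encodes the SmB and SmB′ proteins, fell from 4634 to 3458 normalized counts, or to 74.6% (68.5% to 81.2%, adjusted p = 1.2e-10). SNRPB lies at chr20:2461634-2470853 on the minus strand, and SNRPD3 at chr22:24555958-24582052 on the plus strand.

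The U1 and U2 snRNPs have proteins of their own besides the ring. SNRPA, which binds a stem loop of U1 RNA, fell to 72.3% of vehicle (66.8% to 78.3%, adjusted p = 1.2e-14). SNRPC, which helps U1 at the 5′ splice site, rose to 122% (113% to 132%). The partners SNRPA1 and SNRPB2 in the U2 particle rose to 120% (107% to 135%) and 114% (106% to 124%) (adjusted p = 0.0040 and 0.0033). Over the 11 SNRP genes, 9 were thus higher (81.8%) and 2 were lower (18.2%), with a median log2 fold change of 0.29. For the 5513 genes with a mean of 1000 or more, these values were 39.3%, 27.9% and 0.06. SNRPA1, with a mean of 979, is just below that level. SNRPA1 shares 28.9% of its 75-base stretches with other genes, SNRPG 13.7% and SNRPD3 12.7%.

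Changes within the SF3A and SF3B complexes were split. SF3A and SF3B belong to the U2 snRNP and hold it at the branch site. SF3A3 rose from 3597 to 5743 normalized counts, which is 160% of vehicle (149% to 171%, log2 fold change 0.68, adjusted p = 5.6e-42). Its partners SF3A1 and SF3A2 did not pass, at 102% (93.6% to 110%) and 91.9% (81.6% to 104%). SF3A3 lies at chr1:37956975-37990075 on the minus strand. Of the 3 SF3A genes, a single gene was thus called, as higher (33.3%), beside 39.3% higher among all genes with a mean of 1000 or more.

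Of the 6 SF3B genes, 2 were higher (33.3%), 2 were lower (33.3%) and 2 did not pass. At a mean of 1000 or more, 39.3% of all genes were higher and 27.9% were lower. SF3B3, a scaffold subunit that is also found in the SAGA acetyltransferase complex, fell from 7891 to 5120 normalized counts, or to 64.9% of vehicle (61.0% to 69.0%, adjusted p = 1.2e-40). SF3B6, another subunit of the complex, fell from 2526 to 1676, or to 66.4% (61.1% to 72.0%, adjusted p = 2.4e-21). In contrast, SF3B5, the smallest subunit, rose from 1159 to 1660, or to 143% (130% to 158%). SF3B1, which clamps the branch site helix and is recurrently mutated in cancer, rose to 127% (118% to 136%). SF3B2 and SF3B4 did not pass, with intervals of 87.7% to 103% and 96.1% to 112%. SF3B3 lies at chr16:70523791-70577670 on the plus strand and SF3B6 at chr2:24067586-24076373 on the minus strand.

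U2AF binds the 3′ splice site before U2 arrives. Its large subunit gene U2AF2, for the protein that reads the polypyrimidine tract, rose to 123% of vehicle (114% to 133%, adjusted p = 4.8e-07). U2AF1L4, a paralog of the small subunit, fell to 75.3% (61.7% to 92.0%, adjusted p = 0.014). U2AF1L4 has a mean normalized count of 179 and shares 33.7% of its 75-base stretches with an overlapping gene.

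**Figure D3:**
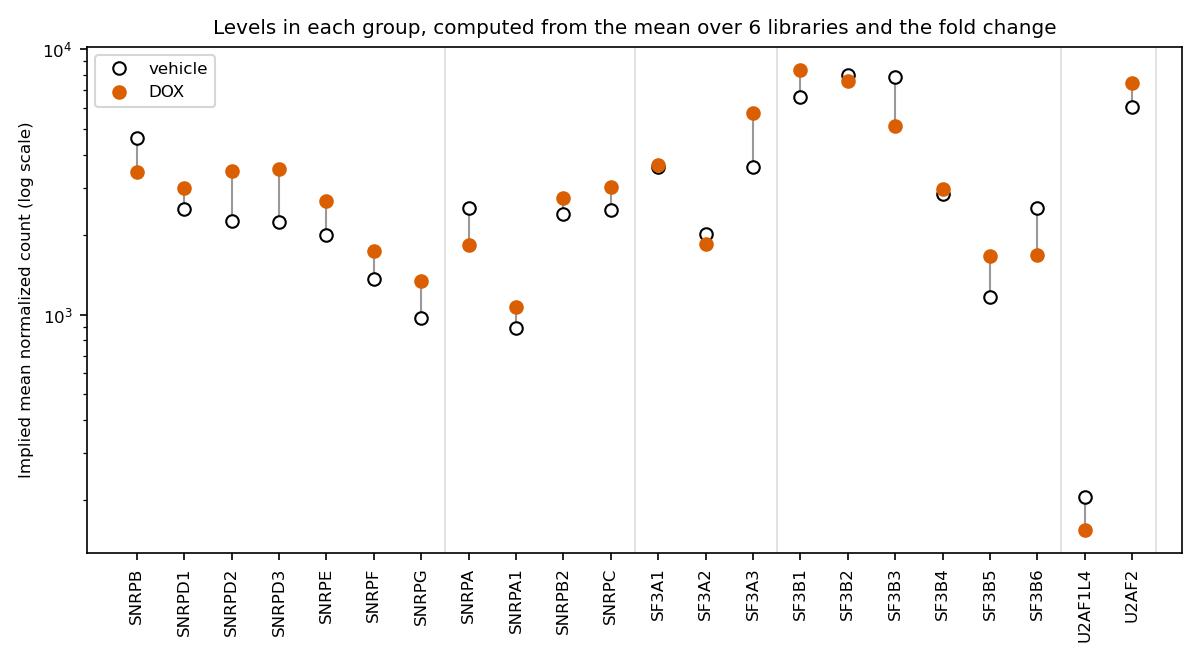
Level in normalized counts computed for vehicle and DOX (y axis, log scale) for the Sm ring, U1 and U2, SF3A, SF3B and U2AF genes (x axis), with lines joining open circles (vehicle) and filled circles (DOX) and no error bars. SF3A3 rose from 3597 to 5743 and SF3B3 fell from 7891 to 5120, whereas SF3A1 and SF3B4 have nearly overlapping circles.

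The changes came at widely different levels. Per kilobase of the annotated transcript, HNRNPK had 9668 normalized counts, HNRNPA2B1 9540 and HNRNPA1 5790. In the SNRP group SNRPD2 was at 5564 per kilobase. HNRNPK and HNRNPA2B1 thus had small fold changes at the highest levels, and SRSF12 had the largest fold change at 98.3 per kilobase. The 57 genes held 1.29% of the summed mean normalized counts of all genes. These levels depend on the transcript chosen for each gene, which was the canonical transcript of GENCODE 44.

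Short sequences were also counted in the promoters of the genes, by family. Windows from RefSeq (GRCh38.p14), from 250 bases before to 50 bases after a transcription start, were available for 53 of the 57 genes, with 73 windows in all, some of which overlap within a gene. Among 35116 windows of all genes, CCGGAA or its reverse complement TTCCGG, the core of many ETS factor sites, was present in 17.2%. Of the 73 windows, 35.6% held it. It was present in 10 of 15 SNRP windows (66.7%) and in 6 of 9 SF3A and SF3B windows (66.7%), and in 7 of 33 HNRNP windows (21.2%) and 2 of 14 SRSF windows (14.3%). CCAAT or its reverse complement ATTGG was present in 39.7% of the 73 windows and 34.6% of all windows. By family, 21 of 33 HNRNP windows (63.6%) held it, beside 4 of 15 SNRP windows (26.7%) and 3 of 14 SRSF windows (21.4%). CACGTG, the palindromic E-box, was found in 13.7% of the 73 windows and 7.26% of all windows, and in no SNRP or SRSF window. The median GC content was 62.3% in the 73 windows and 58.7% in all windows. A match of letters is no evidence of binding.

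The letters were found in genes of each direction. CCGGAA or TTCCGG was present in 33.3% of the 39 windows of genes that were higher, in 38.5% of the 13 windows of genes that were lower and in 42.1% of the 19 windows of genes that did not pass. For CCAAT or ATTGG, these shares were 33.3%, 30.8% and 52.6%, and for CACGTG they were 12.8%, 23.1% and 5.26%. Some genes have several windows. By gene, CCGGAA or TTCCGG was present in 10 of 24 higher genes, 5 of 10 lower genes and 8 of 17 that did not pass. These counts were 12, 3 and 9 for CCAAT or ATTGG, and 4, 2 and 1 for CACGTG. The windows are few and the shares were not tested. To show the letters in place, windows of the highest and the lowest gene by fold change with a window are printed for the Sm ring, for SF3 and for the SR proteins. They are given 5′ to 3′ on the strand of the gene, and capitals mark matches to any of the searched letters, which in these windows were CCGGAA or TTCCGG. For the Sm ring, the window of SNRPB, which fell, spans chr20:2470740-2471039 on the minus strand and has 3 matches. That of SNRPD3, which rose, spans chr22:24555749-24556048 on the plus strand and has 2 matches, while the other window of that gene has none.
SNRPB: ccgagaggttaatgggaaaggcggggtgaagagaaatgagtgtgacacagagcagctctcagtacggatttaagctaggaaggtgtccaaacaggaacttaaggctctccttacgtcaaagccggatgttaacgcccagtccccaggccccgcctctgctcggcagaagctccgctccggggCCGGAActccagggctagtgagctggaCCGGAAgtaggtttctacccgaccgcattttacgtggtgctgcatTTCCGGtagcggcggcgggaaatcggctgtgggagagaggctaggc
SNRPD3: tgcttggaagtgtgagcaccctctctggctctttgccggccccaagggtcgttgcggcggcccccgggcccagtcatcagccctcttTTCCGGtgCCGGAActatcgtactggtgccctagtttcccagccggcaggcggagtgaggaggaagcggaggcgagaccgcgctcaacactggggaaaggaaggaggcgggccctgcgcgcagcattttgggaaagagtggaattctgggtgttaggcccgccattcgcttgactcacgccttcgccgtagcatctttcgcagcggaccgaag
For SF3, the window of SF3A3, which rose, spans chr1:37989973-37990272 on the minus strand and has 2 matches. That of SF3B6, which fell, spans chr2:24076277-24076576 on the minus strand and has 4 matches.
SF3A3: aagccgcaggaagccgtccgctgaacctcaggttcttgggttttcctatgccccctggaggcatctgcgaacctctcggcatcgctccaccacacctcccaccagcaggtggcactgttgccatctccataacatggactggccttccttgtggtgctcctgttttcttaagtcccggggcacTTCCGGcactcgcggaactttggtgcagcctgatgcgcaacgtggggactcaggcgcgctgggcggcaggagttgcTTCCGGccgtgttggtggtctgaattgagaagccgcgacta
SF3B6: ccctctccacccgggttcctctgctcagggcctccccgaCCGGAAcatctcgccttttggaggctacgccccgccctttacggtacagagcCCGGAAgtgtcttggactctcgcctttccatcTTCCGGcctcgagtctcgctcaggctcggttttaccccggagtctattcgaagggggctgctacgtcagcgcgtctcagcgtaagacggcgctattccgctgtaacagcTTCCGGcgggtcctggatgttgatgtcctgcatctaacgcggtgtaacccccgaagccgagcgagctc
For the SR proteins, the windows of SRSF1, which rose, and SRSF12, which fell, have no match to any of the searched letters. They span chr17:58007197-58007496 and chr6:89118022-89118321, both on the minus strand.
SRSF1: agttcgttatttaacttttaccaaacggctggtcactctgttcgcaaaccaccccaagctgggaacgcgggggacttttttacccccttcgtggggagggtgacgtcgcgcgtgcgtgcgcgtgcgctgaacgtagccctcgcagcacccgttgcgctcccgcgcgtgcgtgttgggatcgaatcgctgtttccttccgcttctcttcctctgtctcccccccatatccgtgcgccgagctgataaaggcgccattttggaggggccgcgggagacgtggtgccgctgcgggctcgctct
SRSF12: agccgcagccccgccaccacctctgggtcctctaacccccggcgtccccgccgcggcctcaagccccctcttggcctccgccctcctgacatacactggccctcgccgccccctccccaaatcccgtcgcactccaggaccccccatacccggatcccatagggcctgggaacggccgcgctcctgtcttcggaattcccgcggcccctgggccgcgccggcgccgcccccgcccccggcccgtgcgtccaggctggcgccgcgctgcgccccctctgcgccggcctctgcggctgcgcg

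**Figure D4:**
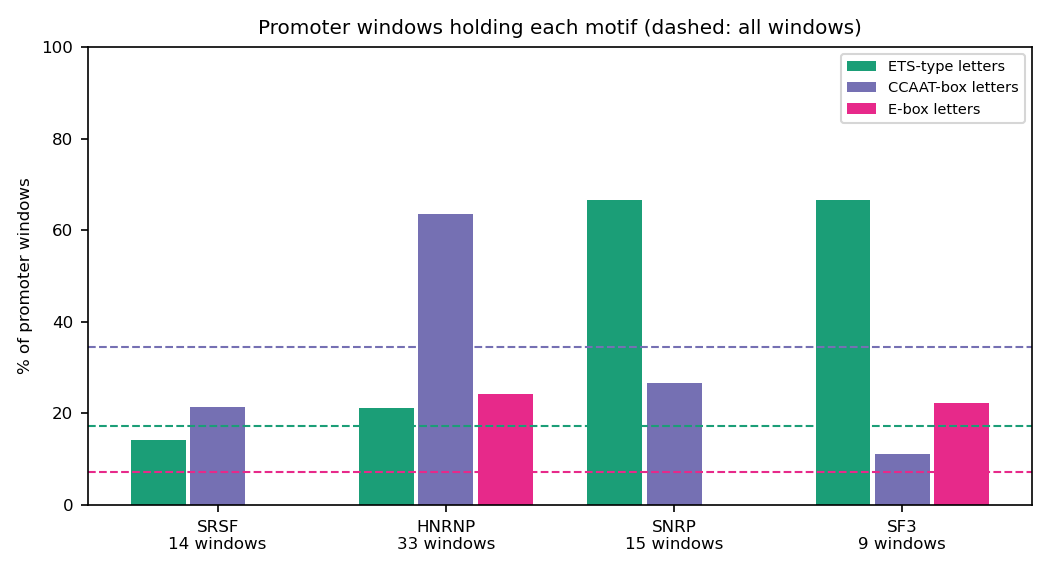
Percent of promoter windows (y axis) that hold CCGGAA (ETS-type), CCAAT or CACGTG (E-box) or their reverse complements, by family (x axis, bars), with dashed lines for all 35116 windows. CCGGAA or TTCCGG stands at 66.7% in the SNRP and SF3 windows, and CCAAT or ATTGG at 63.6% in the HNRNP windows.

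Other genes of the splicing machinery were also described, from 8 lists with 107 genes, of which 105 had a row. Of these, 39 were higher with DOX (37.1%), 22 were lower (21.0%) and 44 did not pass, with a median log2 fold change of 0.09. The shares were 24.3% higher and 22.5% lower among all genes tested, and 39.3% and 27.9% among those with a mean of 1000 or more. The counts of each list below stand beside these same shares. Against the null hypothesis of a change within 0.25 of 0, 10 of the 105 were higher and 3 lower. In either direction, 23.6% of all genes with a mean of 1000 or more passed it, a level that some of the 105 do not reach. The largest estimates belong to 2 genes with few counts, named here after their values were seen. DDX39B, with a mean normalized count of 3.12, did not pass (log2 estimate 2.27, shrunken to 0.27, adjusted p = 0.11). ESRP1, with a mean of 13.0, was lower (log2 estimate -2.47, shrunken to -0.81, adjusted p = 0.00032). Overlaps and shared stretches with other genes were not computed for the genes of these lists, so their part in such low counts was not tested. In the list of U1, U5 and tri-snRNP proteins, which also holds the minor spliceosome proteins SNRNP25, SNRNP35 and SNRNP48, 9 of 19 were higher (47.4%) and 2 were lower (10.5%). SNRNP27, a tri-snRNP protein, fell to 52.7% of vehicle (47.6% to 58.4%, adjusted p = 3.1e-33). DDX23, a helicase of the U5 snRNP, rose to 155% (143% to 167%). SNRNP25, of the minor spliceosome, rose to 173% (148% to 203%).

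The LSM ring takes the place of the Sm ring on U6 RNA. Of its 7 genes, LSM3 rose to 185% of vehicle (170.4% to 201%, adjusted p = 3.9e-47) and LSM7 to 198% (174% to 226%, adjusted p = 4.1e-23), and the other 5 did not pass. Among the 7 partners at the branch site and 3′ splice site, 3 were higher and 1 was lower. SF1, which binds the branch site before U2, rose to 113% (105% to 123%), and DDX46, the helicase that loads U2, to 119% (111% to 127%). RBM17, a binding partner of SF3B1, fell to 87.9% (81.3% to 94.97%).

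SR-related proteins and the kinases of SR proteins showed 5 of 15 genes in each direction. CLK2, an SR protein kinase, fell to 79.5% of vehicle (69.8% to 90.45%), and PNN, a nuclear speckle protein, rose to 130.5% (121% to 141%). In the exon junction complex, which marks spliced mRNA, 2 of 5 genes were higher and 2 lower. RBM8A rose to 142% (133% to 152.5%) and CASC3 fell to 76.8% (71.1% to 82.9%). For the 15 genes of the Prp19 complex and spliceosomal helicases, 3 were higher and 3 lower, with DHX8 at 130.2% and SLU7 at 86.5%.

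The assembly of Sm rings needs the SMN complex, of which SMN1 and SMN2 had no row. Of 11 assembly genes, 4 were higher and 3 lower. GEMIN2, which holds the Sm pentamer, fell to 64.9% of vehicle (56.8% to 74.1%, adjusted p = 1.3e-09). WDR77, a partner of the methyltransferase that modifies Sm proteins, rose to 137% (126% to 150%). Among 26 other regulators, 11 were higher and 6 lower. RBFOX2, which binds GCAUG, rose to 147% (136% to 158%) and TARDBP to 144% (135% to 155%), whereas PTBP2, the neuronal polypyrimidine tract binding protein, fell to 81.0% (71.4% to 92.0%).

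**Figure D5:**
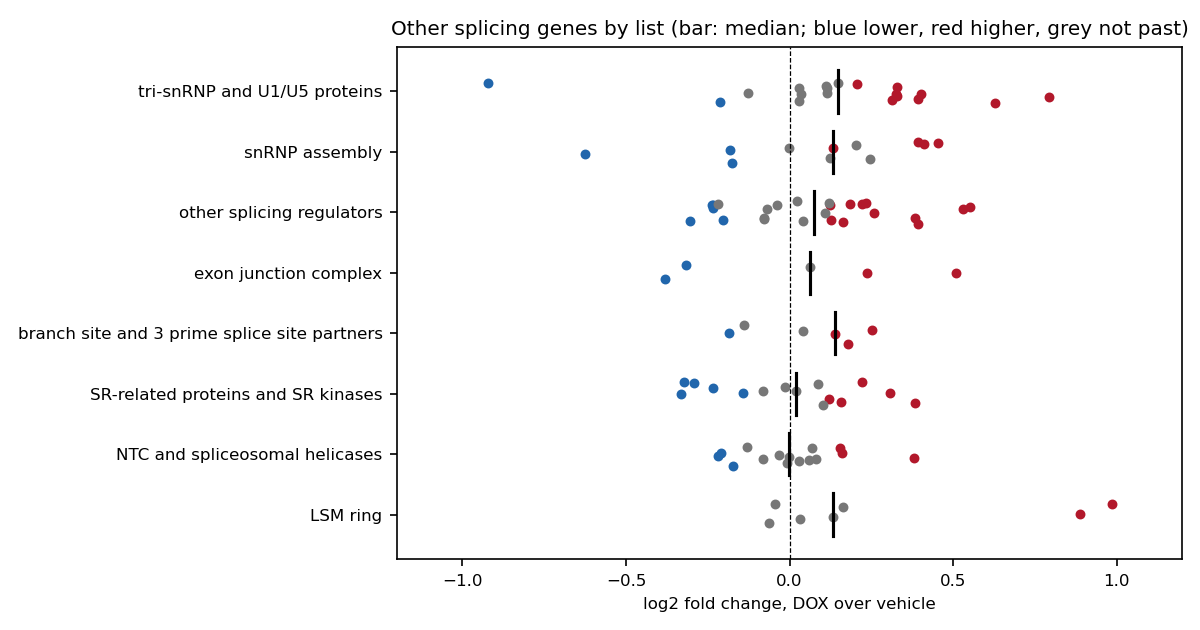
Log2 fold change of DOX over vehicle (x axis) for other splicing genes by list (y axis), in red for higher, blue for lower and grey for not past the threshold, with black bars at the medians and 2 genes beyond the axis not drawn. Most points lie within 0.5 of 0 on the log2 scale in each list.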

How the data were processed

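RNA was sequenced from 3 vehicle and 3 DOX cultures of BT-549/tet-WDR5shRNA cells. A single table was used, which lists each gene by symbol and gives no library its own values. The authors aligned stranded poly(A) libraries to GRCh38 with STAR and compared the groups with DESeq2. The gene counter and the tool versions are not given in the sources used here. Each mean normalized count is a signal, deposited as an average over all 6 libraries. Fold changes of DOX over vehicle, with standard errors, were deposited as log2 values. The authors' Wald score equals the fold change over its error in each row. Every adjusted p-value in the text is the one the authors obtained with DESeq2's Wald test and deposited. The fold changes, errors and p-values are thus the authors' own comparison, which was used because no values of single libraries were analysed. Only those errors carry the spread between cultures. The records and the methods speak of cells cultured in triplicate, and the methods state independent biological replicates for the experiments in general. Library depth is unknown.

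The design put a count test first and the deposited Wald test second, and the second applied. The Benjamini-Hochberg adjustment was recomputed over 15954 genes and checked against the listed values. Intervals (95%) extend 1.96 standard errors to each side and are given as percent of vehicle. Group levels were derived from the mean and the fold change of 3 against 3 libraries. Gene models, transcript lengths, GC content and shared 75-base stretches came from GENCODE 44, in which 17729 of 19792 symbols and all 57 splicing factor genes were found. Genes were named by role, up to the 6 lowest and 6 highest called per family with a mean of at least 100, those nearest to no change, those with a mean under 100 and the highest per kilobase, and for other lists the 2 lowest and 2 highest called. The SR, hnRNP and snRNP genes and the other lists were chosen with earlier results of these data known. Calculations were tested on simulated data and used Python 3.11.15 with matplotlib 3.10.9, pandas 2.3.3, scipy 1.17.1 and numpy 2.4.6. Alternatives were other adjustments and thresholds, filters on expression, shrinkage, centring, a null hypothesis of 0.25 in size, and a fit on GC content and transcript length. Protein sequences were not used here.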

Additional observations from a re-analysis of the deposited data

How the results depend on the processing

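Among the SR, hnRNP and snRNP genes, the counts of 11 lower and 26 higher moved by over 1.5 times under a single alternative, the null hypothesis of at most 0.25 in size on the log2 scale, with 7 lower and 10 higher. A fit on GC content and transcript length lost HNRNPF and gained SRSF5, HNRNPA3 and HNRNPA1. With it, 5 genes that did not pass in either case changed sign, to 0.045 for HNRNPC, 0.064 for HNRNPLL, 0.0023 for SRSF10, 0.0072 for SRSF11 and 0.030 for SRSF3. U2AF1L4, HNRNPF and HNRNPUL1 were lost at an adjusted p under 0.01 and with the Benjamini-Yekutieli adjustment. The Bonferroni adjustment left 8 lower and 19 higher. Among these alternatives, a share over all genes was computed only for the null hypothesis of 0.25. It was 23.6% of all genes with a mean of 1000 or more, in either direction. Of the other splicing genes, 39 higher became 23 with Bonferroni and 10 with the null hypothesis of 0.25, and 22 lower became 4, 3 and, with the fit on GC content and length, 14. Counting only genes with a mean of at least 1000, or without shared stretches, was chosen after seeing the data. No paired analysis was possible because no values of single libraries were analysed, and for the same reason leaving out a culture, other size factors and filters on counts were not run. Neither DOX itself nor protein or isoform levels can be read from these values, and few counts limit SRSF8, HNRNPCL1 and U2AF1L4.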

Other observations

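The 5 pseudogene rows left out of the splicing factor genes were HNRNPA1P10, HNRNPA1P33, HNRNPA3P1, HNRNPKP3 and SNRPD2P2. HNRNPA1P10, with a mean normalized count of 409, was at 92.9% of vehicle with DOX (80.6% to 107%), and HNRNPA3P1, with a mean of 107, was at 105% (81.4% to 136%). The other 3 had means of 13.6 or less.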
